A study of Mus musculus with 9 samples.

Results

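The genes described here encode the hepatic machinery of fatty acid oxidation and ketone body metabolism together with the targets of the nuclear receptor PPAR alpha. They were chosen as a list of 39 mouse symbols for mitochondrial and peroxisomal beta-oxidation, ketogenesis and the PPAR alpha response, by function and with no threshold on a measured value. All 39 symbols were found among the 55335 genes of the series. Liver RNA was sequenced from 9 male offspring of strain B6D2F2, with 3 mice in each of 3 groups. The NC group was conceived and carried naturally, the IVF group came from fresh embryos fertilized in vitro, and the FET group came from embryos fertilized in vitro, slow-frozen at the 2-cell stage and thawed. The mice received chow and gave their livers at 20 weeks of age after a fast of 4 h. Embryos of the IVF and FET groups were carried by pseudopregnant ICR females and those of the NC group by their own mothers, so the embryo procedure and the recipient female cannot be told apart in a comparison with NC. The parents were B6D2F1/J hybrids of C57B6L/J and DBA2/J, so alleles of both strains segregate among the offspring. By their labels, the NC group holds mice 1, 5 and 6, and each of the other groups holds mice 2, 3 and 4. The labels also number the libraries. By these numbers NC mouse 1 lies nearer to the IVF and FET mice than to NC mice 5 and 6. This order bears on every comparison with NC, and its part in them was not tested.

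Liver oxidizes fatty acids to supply itself with energy during fasting and turns the resulting acetyl-CoA into ketone bodies for other tissues. Long-chain acyl-CoA enters mitochondria through the carnitine shuttle, in which CPT1A catalyses the regulated step, and is shortened by cycles of dehydrogenation, hydration, a second dehydrogenation and thiolysis. Peroxisomes shorten very long-chain and dicarboxylic fatty acids by a parallel set of enzymes. PPAR alpha, bound with RXR to direct repeats of the half-site AGGTCA spaced by 1 base, activates many of these genes when fatty acids arrive in the fasting liver.

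Fabp1 carries the finding on abundance, since it stood first among the 39 genes in every mouse, and its promoter is shown for that reason. It encodes the liver fatty acid binding protein, which carries long-chain fatty acids through the cytosol, and it is a classical PPAR alpha target. RefSeq places the window of 250 bases before and 50 bases after its start at chr6:71199629-71199928 on the plus strand of GRCm38.p6. A direct repeat of AGGTCA with a 1-base spacer, in a looser form that accepts any base at the fourth position of each half-site, lies on the minus strand from 67 to 55 bases before the start and is in capitals.

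Fabp1 promoter: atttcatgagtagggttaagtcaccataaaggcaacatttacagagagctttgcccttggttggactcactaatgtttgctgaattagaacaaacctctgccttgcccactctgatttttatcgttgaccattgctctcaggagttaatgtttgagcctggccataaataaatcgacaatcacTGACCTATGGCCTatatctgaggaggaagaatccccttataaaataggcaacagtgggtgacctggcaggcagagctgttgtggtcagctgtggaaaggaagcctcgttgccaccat

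Of the 39 genes, 32 had a RefSeq promoter in the table used, and Fabp1 was the only one whose window held the looser form on either strand. Across all 32851 promoters of that length, 0.381% held it. The strict form, with both half-sites spelled exactly, was in 0 of the 32 genes and in 0.0396% of all promoters. A match is one of letters only.

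Cpt1a and Ehhadh were the genes of the list for which the study designed PCR primers, and the primers are shown because they fix which exons those assays read. All 4 match the GENCODE vM21 transcripts of GRCm38 once, within exon 3 of the coding sequence. Cpt1a is read at chr19:3352487-3352619 on the plus strand and Ehhadh at chr16:21775353-21775447 on the minus strand. No PCR value is reported here.
Cpt1a forward: TGGCATCATCACTGGTGTGTT
Cpt1a reverse: GTCTAGGGTCCGATTGATCTTTG
Ehhadh forward: ACAGCGATACCAGAAGCCAG
Ehhadh reverse: TGGCAATCCGATAGTGACAGC

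None of the genes was called different between groups, and their summed level without Fabp1 was lowest and highest in the libraries with the smallest and the largest share of nuclear protein-coding RNA. The unit is FPKM, mapped fragments scaled to the length of the gene and the size of the library. Of the 39 genes, 31 averaged 1 FPKM or more across the mice and entered the main tests, as did 6755 genes in all. Genes described below as not tested are those left out of these main tests. Nuclear protein-coding genes made up 4.36% of the summed FPKM in IVF mouse 2 and 4.41% in FET mouse 4, between 9.33% and 18.1% in the other mice except IVF mouse 4, and 29.3% in IVF mouse 4. Of the remainder, 3 ribosomal-type entries took from 3.49% (NC mouse 5) to 61.9% (IVF mouse 2). Mitochondrially encoded genes took 40.2%, 55.3% and 51.9% in NC mice 1, 5 and 6 and between 27.6% and 41.5% in the IVF and FET mice, and the part of this difference in FPKM comparisons with NC was not tested. The depth was estimated from the steps of low FPKM values and lay between 2.02 M and 2.94 M (M, 1000000 mapped fragments) in the FET mice, between 3.90 M and 8.44 M in the IVF mice and between 6.64 M and 13.4 M in the NC mice. Every FET library was thus smaller than every library of the other groups, and the 39 genes together rested on an estimated 3187 fragments in FET mouse 4 against 84325 in NC mouse 6. NC mice 5 and 6, whose library numbers lie apart from the rest, had the deepest libraries, at 11.9 M and 13.4 M. They also had the lowest shares of the ribosomal-type entries, at 3.49% and 5.03%. The part of these differences in the comparisons with NC was not tested.

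Summed FPKM of the 38 genes without Fabp1 was 647 in NC mouse 1, 946 in NC mouse 5 and 1242 in NC mouse 6. It was 200.1 in IVF mouse 2, 745 in IVF mouse 3 and 1494 in IVF mouse 4. The FET mice 2, 3 and 4 had 740.0, 778 and 280.4. The lowest sums were thus those of the libraries with the smallest nuclear protein-coding share, IVF mouse 2 and FET mouse 4, and the highest that of IVF mouse 4. IVF mouse 2 was the lowest of the 9 mice for 22 of the 31 tested genes, or 71%, against 41.3% of all genes tested. IVF mouse 4 was the highest for 19, or 61.3%, against 43.5%. Both held for 13 of the 31 genes.

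**Figure D1:**
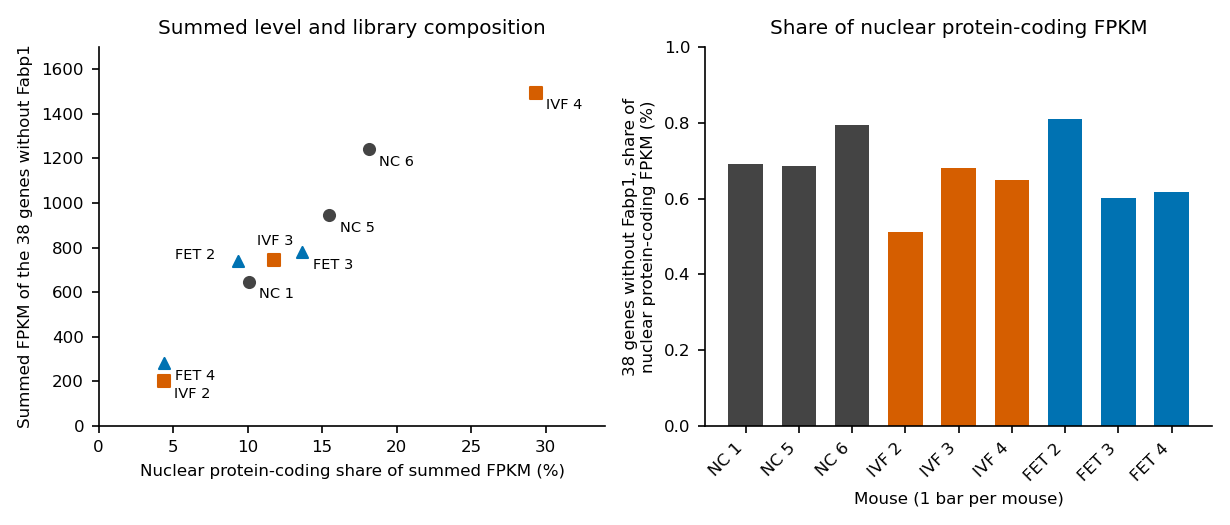
Left, summed FPKM of the 38 genes without Fabp1 (y axis) against the share of nuclear protein-coding genes in the summed FPKM of the library (x axis, %), 1 point per mouse, with circles for NC, squares for IVF and triangles for FET. Right, the same 38 genes as a share of nuclear protein-coding FPKM (%), 1 bar per mouse. The sums run from 200.1 in IVF mouse 2 to 1494 in IVF mouse 4, while the shares lie between 0.511% and 0.810%.

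A second scale was therefore used beside FPKM. Each value was expressed in parts per 1000000 (ppm) of the summed FPKM of nuclear protein-coding genes in its library. On this scale the 38 genes without Fabp1 made up between 0.511% of nuclear protein-coding FPKM in IVF mouse 2 and 0.810% in FET mouse 2, and the 39 genes with Fabp1 between 1.90% in FET mouse 4 and 4.29% in NC mouse 6. Over the 31 tested genes, the median ratio of the highest to the lowest mouse was 9.36-fold in FPKM and 2.74-fold in ppm. Over the 4678 tested genes of the series above 0 in every mouse it was 10.2-fold and 4.77-fold. These ratios are descriptions, and the other genes include many of lower level than the list. Log2 fold changes given in ppm were fitted on FPKM rescaled by the same sums, with 1 added. For genes of low level they are therefore smaller than the printed ppm values alone would give.

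All 8 hepatocyte markers checked, among them Alb, Ttr and Apoa1, were above 0 in every mouse, with summed FPKM from 5491 in IVF mouse 2 to 54760 in IVF mouse 4. The 5 skeletal muscle markers summed to 87.2 in NC mouse 1, 21.9 in IVF mouse 4 and 4.75 in FET mouse 3, and to at most 1.29 in the other mice. The 6 adipocyte markers summed to at most 2.04, with Retn at 0 in every mouse. The 6 macrophage markers summed to between 4.93 and 74.7, the highest in FET mouse 2. The 5 endothelial markers summed to between 1.31 and 6.94, and the 5 red blood cell markers to between 78.0 and 849.9, the highest in NC mouse 1. In bulk RNA, fewer cells of a type and less RNA per cell cannot be told apart.

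**Figure D2:**
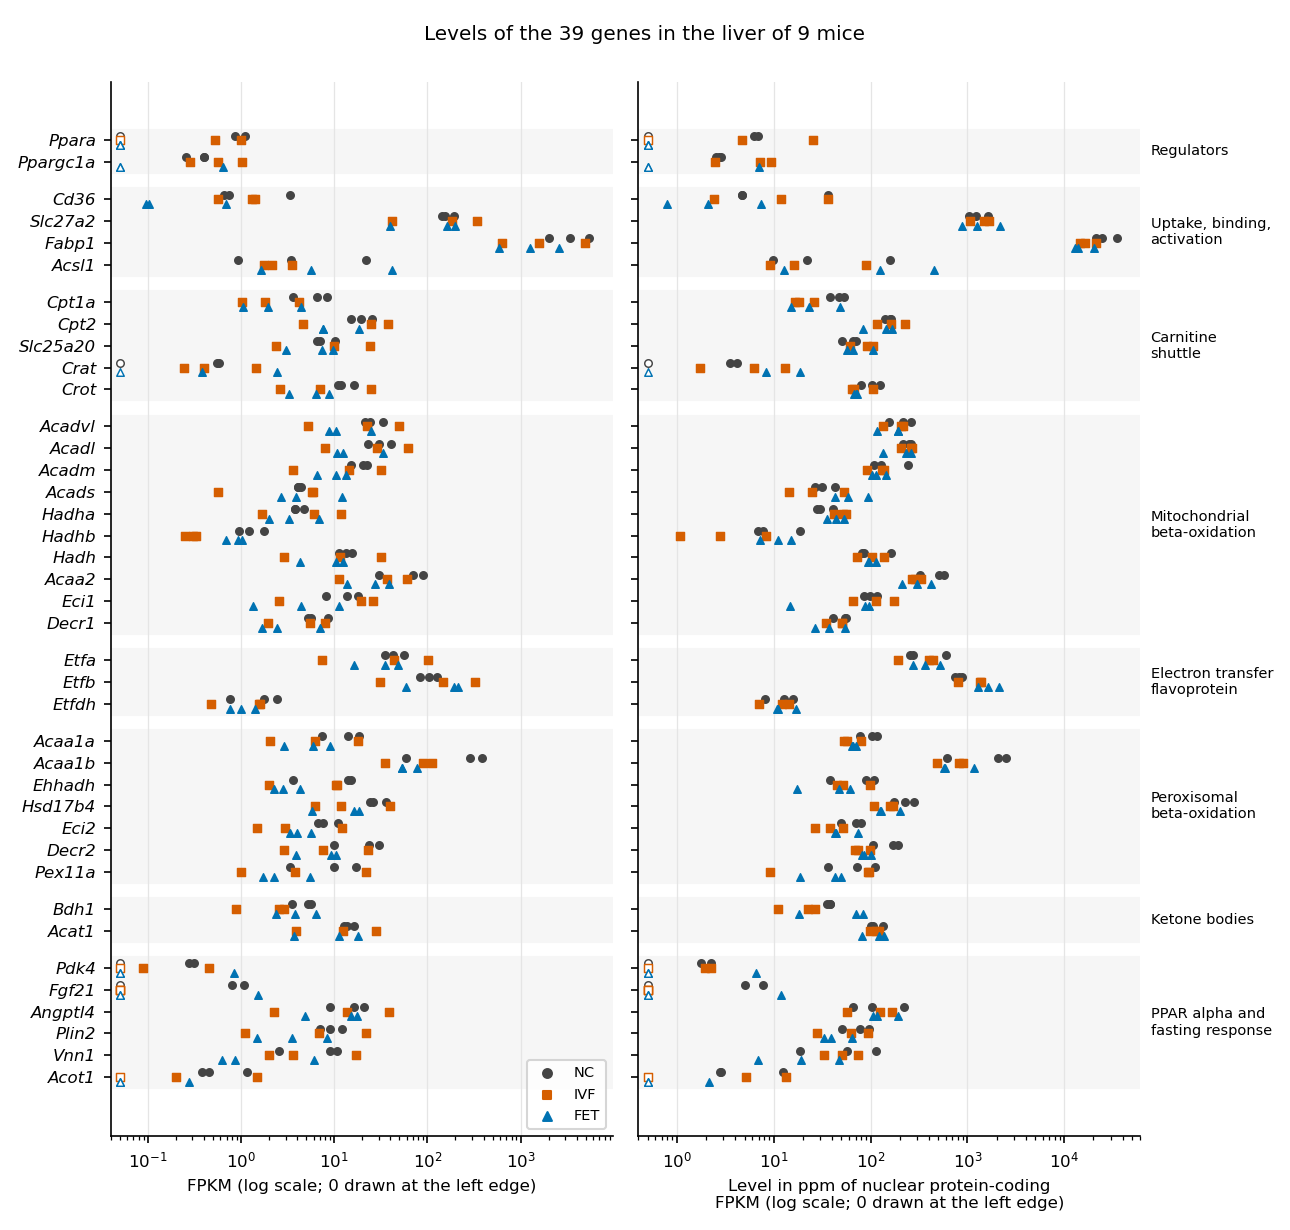
Levels of the 39 genes, grouped by role, in FPKM (left, log axis) and in ppm of nuclear protein-coding FPKM (right, log axis), with 1 point per mouse, circles for NC, squares for IVF, triangles for FET and open symbols for values listed at 0. Fabp1 lies to the right of every other gene in both panels, and the points of most genes are closer together in ppm than in FPKM.

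Both regulators averaged less than 1 FPKM over the 9 mice. Ppara, the receptor itself, had an FPKM of 0.864 and 1.09 in NC mice 5 and 6 and of 1.01 and 0.521 in IVF mice 2 and 3, and was listed at 0 in NC mouse 1, IVF mouse 4 and all 3 FET mice. Ppargc1a, a coactivator that supports mitochondrial gene expression, lay between 0.255 and 1.03 in the NC and IVF mice, was 0.646 in FET mouse 2 and was listed at 0 in FET mice 3 and 4. Neither was tested for that reason. Where Ppara was above 0, it rested on an estimated 8.996 to 56.0 fragments, and in ppm it was highest in IVF mouse 2, at 25.8. Nuclear protein-coding genes had an estimated 0.357 M to 0.794 M fragments in the FET mice, 1.46 M in NC mouse 1, 3.60 M and 4.57 M in NC mice 5 and 6, and 0.957 M to 1.88 M in the IVF mice. The part of depth in the zeros was not tested.

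Among the genes of uptake, binding and activation, Fabp1 had by far the highest level. Its FPKM was 2011, 3407 and 5481 in NC mice 1, 5 and 6, 633, 1583 and 4871 in IVF mice 2, 3 and 4, and 1259.9, 2608 and 582 in FET mice 2, 3 and 4. The groups overlapped in FPKM. Its log2 fold change on the log2(FPKM + 1) scale was -1.43 ± 0.94 (SE, n = 3 per group) in FET against NC, with an adjusted p of 0.556 by limma, and -0.98 ± 0.94 in IVF against NC, with an adjusted p of 1. With 1 mouse left out in turn, these values ran from -1.97 (without FET mouse 3) to -0.89 (without FET mouse 4) and from -1.74 (without IVF mouse 4) to -0.27 (without IVF mouse 2). In ppm, the NC mice had 21439, 24659 and 35001, the IVF mice 16165, 14486 and 21144, and the FET mice 13793, 20173 and 12819. Every NC mouse lay above every IVF and FET mouse on this scale, by a margin of 21439 against 21144 at the closest. The log2 fold change in ppm was -0.79 ± 0.39 in FET against NC, with an adjusted p of 0.338.

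Slc27a2 encodes the very long-chain acyl-CoA synthetase FATP2, which also takes up fatty acids. It lay between 39.5 FPKM in FET mouse 4 and 343 in IVF mouse 4 and, with Acaa1b and Etfb, held ranks 2 to 4 of the list in every mouse. In ppm it averaged 1299 ± 302 (SD, n = 3) in NC, 1408 ± 312 in IVF and 1432 ± 672 in FET, so that its group means differed by less than the spread between mice.

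Acsl1, the main long-chain acyl-CoA synthetase of hepatocytes, was the most uneven of the tested genes. Its FPKM was 41.2 in FET mouse 2 and 21.7 in NC mouse 5, and between 0.93 and 5.67 in the other mice. The highest value was 44.3 times the lowest in FPKM and 48.9 times in ppm. In FPKM, the high values came from 1 mouse of the FET group and 1 of the NC group. In ppm, FET mouse 2 (451), NC mouse 5 (157), FET mouse 4 (125) and IVF mouse 2 (90.7) stood above the other mice, which lay between 9.22 and 22.1. The log2 fold change in FET against NC was 0.64 ± 0.84, with an adjusted p of 0.806 by limma. It was -0.47 without FET mouse 2, -0.15 without NC mouse 1 and 1.63 without NC mouse 5. In FET against IVF it was 1.41 ± 0.84, the highest of the list, with an adjusted p of 1. Part of the exons of Acsl1, 9.91% of their bases, is also annotated to Gm45244 on the opposite strand, and the strandedness of the libraries is not given in the sources used here.

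Cd36, a fatty acid translocase that muscle and adipose tissue express strongly, was 3.37 FPKM in NC mouse 1, 1.43 and 1.3 in IVF mice 2 and 3, and under 0.74 in the others. Its mean over the 9 mice was below 1 and it was not tested. In ppm, NC mouse 1 and IVF mouse 2 had the highest levels, 36.0 and 36.4. NC mouse 1 was also the mouse with the highest summed muscle markers, and their part in its level was not tested.

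In the carnitine shuttle, Cpt1a was lower in most IVF and FET mice than in NC. It encodes the carnitine palmitoyltransferase of the outer mitochondrial membrane, lies on chromosome 19 from 3322334 to 3385733, and had an FPKM of 3.59, 6.48 and 8.34 in NC mice 1, 5 and 6. The IVF mice 2, 3 and 4 had 1.02, 1.83 and 4.22, and the FET mice 2, 3 and 4 had 4.39, 1.93 and 1.05. Only IVF mouse 4 and FET mouse 2 came above the lowest NC mouse. On the log2 scale, Cpt1a differed by -1.14 ± 0.66 in IVF against NC (adjusted p of 1 by limma) and -1.10 ± 0.66 in FET against NC (adjusted p of 0.520).

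In ppm, Cpt1a was 38.2, 46.9 and 53.3 in the NC mice, 26.0, 16.7 and 18.3 in the IVF mice, and 48.1, 14.9 and 23.2 in the FET mice. All IVF mice lay below all NC mice, whereas FET mouse 2 lay among the NC mice and the other FET mice below them. In IVF against NC the log2 fold change on this scale was -0.89 ± 0.36, with an unadjusted p of 0.033 and an adjusted p of 0.868 by limma.

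Cpt2, the inner membrane transferase, had a mean FPKM of 19.9 ± 5.16 in NC, 22.4 ± 16.7 in IVF and 11.2 ± 6.43 in FET. By mouse it was 15, 19.4 and 25.3 in NC, 4.58, 24.9 and 37.7 in IVF, and 7.55, 18.7 and 7.51 in FET, so all groups overlapped. In FET against NC the log2 fold change was -0.86 ± 0.92, with an adjusted p of 0.757.

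Slc25a20, the carnitine-acylcarnitine carrier between the transferases, had 6.57, 6.99 and 10.3 FPKM in the NC mice, 2.39, 9.96 and 24.3 in the IVF mice and 9.69, 7.33 and 3.02 in the FET mice. The groups overlapped, and the sign of its difference depended on the scale. In FET against NC the log2 fold change was -0.31 ± 0.82 in FPKM and 0.23 ± 0.34 in ppm. In IVF against NC it was 0.15 ± 0.82 in FPKM, with an adjusted p of 1.

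Crot, the peroxisomal carnitine octanoyltransferase that exports shortened acyl groups, was 11.8, 11.0 and 16.4 FPKM in the NC mice and 6.43, 8.76 and 3.26 in the FET mice, which did not overlap, nor did they in ppm. The IVF mice, at 2.63, 6.97 and 24.6, spanned both groups. Crat, the carnitine acetyltransferase, lay between 0 and 2.42 FPKM and was not tested.

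Acadvl, Acadl and Acadm encode the dehydrogenases of mitochondrial beta-oxidation for very long, long and medium chains. In FPKM, Acadvl ranged from 5.24 to 50.1 FPKM, Acadl from 8.03 to 61.1 and Acadm from 3.60 to 32.0, each lowest in IVF mouse 2 and highest in IVF mouse 4. In ppm, the highest mouse exceeded the lowest by 2.25 times for Acadvl, 1.97 times for Acadl and 2.63 times for Acadm. Acadm was lower in every FET mouse (10.4, 13.4 and 6.55) than in every NC mouse (22.7, 15.1 and 20.3) in FPKM, and overlapped in ppm. Of the exonic bases of Acadvl, 42.9% are also annotated to Dvl2 on the opposite strand.

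Acads, the short-chain dehydrogenase, differed from these in pattern. It had 4.06, 4.35 and 4.13 FPKM in the NC mice, 0.569, 5.85 and 5.78 in the IVF mice and 3.92, 12.2 and 2.66 in the FET mice. The highest value was that of FET mouse 3, and without this mouse the log2 fold change in FET against NC turned from 0.26 ± 0.73 to -0.29. In FET against IVF it was 0.57 ± 0.73, with an adjusted p of 1 by limma. In ppm the FET mice had 42.9, 94.0 and 58.6, the NC mice 43.2, 31.5 and 26.4 and the IVF mice 14.5, 53.5 and 25.1.

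Hadha and Hadhb encode the alpha and beta subunits of the mitochondrial trifunctional protein, which assemble together, and their levels differed. Hadha had 3.81, 3.83 and 4.75 FPKM in the NC mice, 1.66, 6.06 and 11.9 in the IVF mice and 3.24, 6.82 and 2.01 in the FET mice. Hadhb had 1.77, 0.941 and 1.21 in the NC mice, 0.326, 0.305 and 0.248 in the IVF mice and 1.02, 0.923 and 0.683 in the FET mice. Every IVF mouse thus had less Hadhb than every other mouse in FPKM, while Hadha reached its highest value in IVF mouse 4. In ppm Hadhb overlapped, with 8.33, 2.79 and 1.08 in the IVF mice against 18.9, 6.81 and 7.72 in the NC mice. Hadhb had a mean below 1 and was not tested in the main fit, and its pattern was noticed after its values were seen. Without a filter on low values it had an unadjusted p under 0.05 by limma in IVF against NC, as did 5.76% of all genes. For Hadha, the log2 fold change was -0.14 ± 0.72 in FET against NC and 0.28 ± 0.72 in IVF against NC, with adjusted p-values of 0.960 and 1 by limma. With 1 mouse left out these values ran from -0.52 to 0.17 and from -0.24 to 0.90, so each changed sign. The value in FET against NC was 0.34 ± 0.29 in ppm. In ppm, all IVF mice (42.4, 55.5 and 51.5) lay above all NC mice (40.6, 27.7 and 30.3) for Hadha.

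Among the last enzymes of the cycle, Acaa2, the mitochondrial 3-ketoacyl-CoA thiolase, was the most abundant of this class. Its FPKM was 30.1, 69.5 and 88.7 in the NC mice, 11.2, 36.4 and 61.1 in the IVF mice and 38.7, 27.1 and 13.6 in the FET mice. NC mouse 1 lay within the range of the other groups. FET and NC differed by a log2 fold change of -1.20 ± 1.02, with an adjusted p of 0.680.

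Eci1, the enoyl-CoA isomerase that handles unsaturated fatty acids, had 8.11, 13.6 and 18.1 FPKM in the NC mice, 2.58, 19.2 and 25.9 in the IVF mice and 1.35, 11.3 and 4.42 in the FET mice. The lowest value, in FET mouse 2, rested on an estimated 5.79 fragments. That mouse was also the lowest in ppm, at 14.7 against 65.8 to 175 in the others. Its log2 fold change was -1.34 ± 0.87 in FET against NC (adjusted p of 0.553 by limma) and -1.21 ± 0.87 in FET against IVF (adjusted p of 1). Without FET mouse 2 these values were -0.74 and -0.61. Hadh, the short-chain hydroxyacyl-CoA dehydrogenase, and Decr1, the dienoyl-CoA reductase, ranged from 2.87 to 31.4 and from 1.69 to 8.56 FPKM, with overlapping groups.

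The electron transfer flavoprotein takes electrons from the acyl-CoA dehydrogenases and passes them to the respiratory chain through its dehydrogenase Etfdh. Its alpha subunit gene Etfa had 56.7, 35.2 and 43.0 FPKM in the NC mice, 7.43, 43.8 and 102 in the IVF mice and 47.7, 35.2 and 16.4 in the FET mice. The groups overlapped, and the log2 fold change in FET against NC was -0.53 ± 1.04 (adjusted p of 0.883 by limma). It was -0.10 without FET mouse 4 and 0.09 ± 0.47 in ppm, so its sign depended on the scale. Etfdh, at 0.473 to 2.46 FPKM, was the lowest of the tested genes in mean level.

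Etfb, the beta subunit gene, was the only gene of the list that was higher in every FET mouse than in every NC mouse in ppm. Its FPKM was 83.1, 103 and 127 in the NC mice, 31.3, 146 and 321 in the IVF mice and 191, 212 and 58.2 in the FET mice, and the groups overlapped. In FPKM the log2 fold change was 0.37 ± 1.10 in FET against NC and 0.15 ± 1.10 in IVF against NC, with adjusted p-values of 0.926 and 1 by limma. With 1 mouse left out, the first ran from 0.036 (without FET mouse 3) to 0.96 (without FET mouse 4), and the second from -0.60 (without IVF mouse 4) to 1.06 (without IVF mouse 2). In ppm, the NC mice had 886, 748 and 813, the IVF mice 799, 1334 and 1392, and the FET mice 2094, 1636 and 1282. The FET and NC means on this scale were 1671 ± 407 and 816 ± 69.3. In FET against NC the difference in ppm was 1.0 ± 0.35 on the log2 scale, with an unadjusted p of 0.018 and an adjusted p of 0.229. Of the exonic bases of Etfb, 53% are also annotated to Gm45233 on the same strand, so fragments there could be assigned to either gene.

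The 7 genes of peroxisomal beta-oxidation had negative log2 fold changes in FET against NC and in IVF against NC, in FPKM and in ppm. Their median in FET against NC was -1.28 in FPKM and -0.70 in ppm, beside -0.46 and -0.06 over all genes tested. In IVF against NC it was -0.88 and -0.60, beside -0.25 and -0.07. All genes tested include many of lower level, whose differences shrink more when 1 is added to FPKM, and the part of level was not tested. With 1 mouse left out, the FPKM median in IVF against NC ran from -1.60 (without IVF mouse 4) to -0.36 (without IVF mouse 2), and Ehhadh was positive without IVF mouse 2 and Pex11a without IVF mouse 3. The median in FET against NC ran from -1.73 (without NC mouse 1) to -0.89 (without FET mouse 4), with all 7 values negative. With NC mouse 1 as the only NC mouse, not all 7 stayed negative, since Acaa1b turned positive in both comparisons. These comparisons share the NC mice, so the second is not independent of the first. Over all genes, 74.4% and 68.9% of the values in FET against NC and in IVF against NC were negative in FPKM, and 53.4% and 55.8% in ppm. None of the 7 genes passed the test in either comparison.

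Acaa1b, a peroxisomal 3-ketoacyl-CoA thiolase of rodents that PPAR alpha agonists induce, was uneven within the NC group. Its FPKM was 285 and 389 in NC mice 5 and 6 but 58.2 in NC mouse 1, which lay among the IVF mice (35.2, 90.2 and 112) and the FET mice (52.9, 76.6 and 53.5). In ppm, the same NC mice had 2066 and 2486 against 620. Acaa1b differed by a log2 fold change of -1.62 ± 1.09 in FET against NC (adjusted p of 0.569 by limma) and -1.38 ± 1.09 in IVF against NC (adjusted p of 1). With NC mouse 1 as the only NC mouse these values were 0.05 and 0.28. In the numbers that the labels give to the libraries, NC mouse 1 (67) is nearer to the IVF and FET mice (71 to 76) than to the other NC mice, and the part of this order in the contrast was not tested. Of the exonic bases of Acaa1b, 11.4% are also annotated to Dlec1 on the opposite strand.

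Acaa1a, the paralog of Acaa1b, had 7.37, 14.1 and 18.4 FPKM in the NC mice, 2.07, 6.29 and 18.2 in the IVF mice and 5.96, 9.06 and 2.89 in the FET mice. In ppm, every FET mouse (65.2, 70.1 and 63.8) lay below every NC mouse, of which the lowest had 78.6. The coding sequences of the paralogs, each of 1272 bases, are 96.5% identical, with a longest identical run of 327 bases, and 37.9% of the 50-base windows of Acaa1a occur unchanged in Acaa1b. Fragments could therefore be split between them, and the level of the less abundant Acaa1a is uncertain.

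Ehhadh, the peroxisomal bifunctional enzyme for dicarboxylic fatty acids, showed the same split within NC. It lies on chromosome 16 from 21761287 to 21787807 and had 3.58, 15 and 13.9 FPKM in NC mice 1, 5 and 6, 2.01, 10.8 and 10.3 in IVF mice 2, 3 and 4, and 4.32, 2.27 and 2.81 in FET mice 2, 3 and 4. The FET mice lay around NC mouse 1 and below the other NC mice. FET and NC differed by a log2 fold change of -1.35 ± 0.78, with an adjusted p of 0.494 by limma.

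Decr2, the peroxisomal dienoyl-CoA reductase, had 9.85, 23.8 and 30.0 FPKM in the NC mice, 2.92, 7.62 and 22.9 in the IVF mice and 9.31, 10.5 and 3.91 in the FET mice. In ppm, the NC mice had 105, 172 and 191, the IVF mice 74.5, 69.8 and 99.5, and the FET mice 102, 81.4 and 86.3. Every NC mouse lay above every other mouse on that scale. In ppm the log2 fold change was -0.84 ± 0.32 in IVF against NC (unadjusted p of 0.027, adjusted p of 0.844 by limma) and -0.70 ± 0.32 in FET against NC (adjusted p of 0.313).

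Hsd17b4, the second peroxisomal bifunctional enzyme, and Eci2, a peroxisomal isomerase, were lower in every FET mouse than in every NC mouse in FPKM. Hsd17b4 had 26.2, 24.2 and 35.6 in NC and 18.5, 16.1 and 5.83 in FET, and Eci2 had 7.49, 6.77 and 11.0 in NC and 3.95, 5.66 and 3.36 in FET. In ppm both overlapped between these groups. Pex11a, which promotes peroxisome division, ranged from 0.993 FPKM in IVF mouse 3 to 21.7 in IVF mouse 4 and was uneven in every group.

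**Figure D3:**
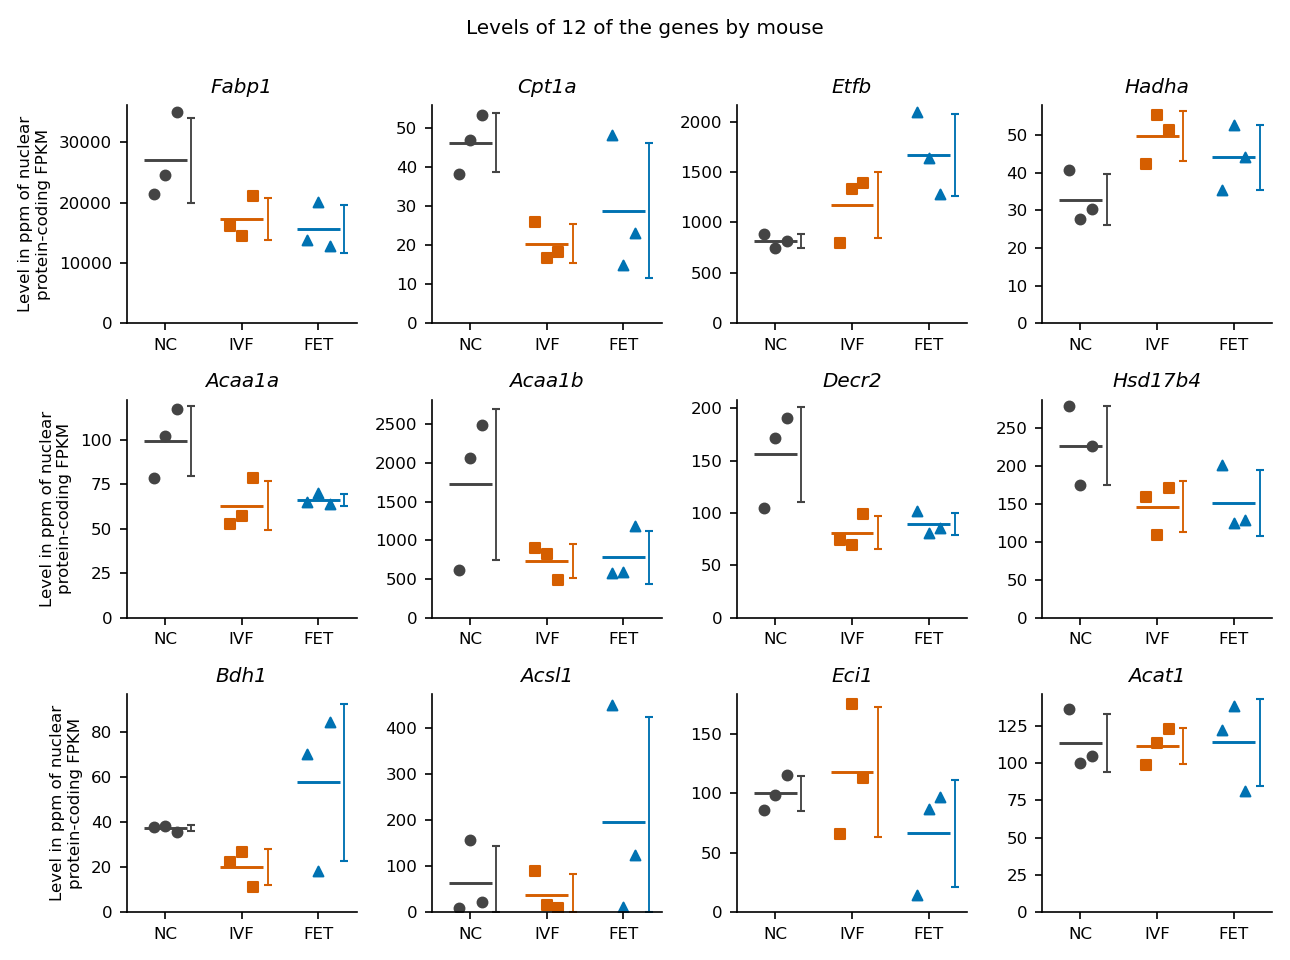
Levels in ppm of nuclear protein-coding FPKM (y axis) of 12 of the genes in NC, IVF and FET mice, 1 point per mouse, with the mean as a horizontal line and the SD as a bracket cut at 0 (n = 3). Decr2 and Fabp1 are higher in every NC mouse than in any other, Etfb is higher in every FET mouse than in NC, and Acsl1 and Bdh1 are uneven within FET.

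Of the ketone body genes, Bdh1, the mitochondrial beta-hydroxybutyrate dehydrogenase, was lower in every IVF mouse than in every NC mouse in FPKM and in ppm. It had 3.54, 5.29 and 5.60 FPKM in the NC mice, 0.880, 2.91 and 2.55 in the IVF mice and 6.44, 2.38 and 3.84 in the FET mice. Bdh1 differed by -0.95 ± 0.67 on the log2 scale in IVF against NC, -0.21 ± 0.67 in FET against NC and 0.74 ± 0.67 in FET against IVF, with adjusted p-values of 1, 0.929 and 1 by limma. In ppm, the NC mice were close together at 37.7, 38.3 and 35.7, the IVF mice had 22.5, 26.7 and 11.1, and the FET mice 70.5, 18.4 and 84.5. FET mice 2 and 4 thus had the highest levels of all, and FET mouse 3 lay among the IVF mice. Of the exonic bases of Bdh1, 13.7% are also annotated to Gm15743 on the opposite strand. In FET against IVF the log2 fold change in ppm was 1.04 ± 0.46, with an unadjusted p of 0.047 and an adjusted p of 0.527 by limma. In FET against NC it was 0.35 ± 0.46 in ppm, so the sign of that comparison depended on the scale.

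Acat1, the mitochondrial acetoacetyl-CoA thiolase, was the steadiest gene of the list in ppm, with means of 114 ± 19.4 in NC, 112 ± 12 in IVF and 114 ± 29.0 in FET and a highest mouse 1.69 times the lowest. Its FPKM was 12.7, 13.9 and 16.4 in the NC mice, 3.86, 12.4 and 28.2 in the IVF mice and 11.1, 17.8 and 3.70 in the FET mice. In FET against NC the log2 fold change was -0.58 ± 0.89 in FPKM (adjusted p of 0.838) and -0.02 ± 0.31 in ppm. In FPKM it was -1.01 without FET mouse 3 and -0.014 without FET mouse 4.

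Of the genes of the PPAR alpha and fasting response, 3 of 6 averaged less than 1 FPKM. Fgf21, the fasting hormone of liver, was 1.07, 0.796 and 1.52 FPKM in NC mice 5 and 6 and FET mouse 3 and was listed at 0 in the other 6 mice. Pdk4, which restrains pyruvate oxidation, was at most 0.844 and listed at 0 in 4 mice. Acot1, a cytosolic acyl-CoA thioesterase, was at most 1.48 and listed at 0 in IVF mouse 4 and FET mice 2 and 4. The coding sequence of Acot1 is 95.6% identical to that of Acot2 over the 1236 aligned bases, so its fragments could be split as well. These 3 genes were not tested.

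Angptl4, a secreted inhibitor of lipoprotein lipase, was the most abundant gene of this class, with 20.7, 9.04 and 16.4 FPKM in the NC mice, 2.25, 13.7 and 38.6 in the IVF mice and 17.7, 15.2 and 4.80 in the FET mice. The groups overlapped, with a log2 fold change of -0.37 ± 0.92 in FET against NC (adjusted p of 0.913 by limma). In ppm that value was 0.20 ± 0.50, so its sign depended on the scale. Plin2, a coat protein of lipid droplets, ranged from 1.09 to 21.7 FPKM. In FPKM it was lowest in IVF mouse 2 and highest in IVF mouse 4. In ppm it was also lowest in IVF mouse 2 but highest in NC mouse 1. The log2 fold change in FET against NC was -1.11 ± 0.81, with an adjusted p of 0.619 by limma. In ppm it was -0.62 ± 0.43.

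Vnn1, a pantetheinase that supplies a precursor of coenzyme A, had 10.7, 2.58 and 9.02 FPKM in the NC mice, 1.98, 3.58 and 17.1 in the IVF mice and 0.626, 6.12 and 0.860 in the FET mice. FET mice 2 and 4 were the lowest of the 9, on an estimated 3.05 and 6.10 fragments, and FET mouse 3 lay among the NC mice. Vnn1 differed by -1.43 ± 0.76 on the log2 scale in FET against NC, with an unadjusted p of 0.067, the lowest of the list in this comparison, and an adjusted p of 0.454 by limma. In FET against IVF it was -1.17 ± 0.76, with an adjusted p of 1, and ran from -1.85 (without FET mouse 3) to -0.41 (without IVF mouse 4) with 1 mouse left out.

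Over the whole list, the comparison of FET with NC gave 0 of 31 genes with an adjusted p under 0.05 by limma, beside 0.237% of all genes tested. At an unadjusted p under 0.05 the list also gave 0, beside 12% of all genes. The members' log2 fold changes ran from -1.62 to 0.64 with a median of -0.86, and 28 of 31 were negative, while the median over all genes tested was -0.46 and 74.4% were negative. Median log2(FPKM + 1) was 1.95 to 4.68 over the tested members, by mouse, against 0.88 to 2.51 over all genes tested. Adding 1 to FPKM shrinks differences of low genes more. The part of level in this and the other medians set beside all genes was not tested. The standard errors of the members lay between 0.58 and 1.11, with a median of 0.87, against a median of 0.66 over all genes, and no difference of the list exceeded the spread between mice by the test used. In FPKM, 4 of 31 genes were lower in every FET mouse than in every NC mouse, namely Crot, Acadm, Hsd17b4 and Eci2. This was 12.9% of the list beside 17.1% of all genes tested, which is no more than the background.

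In ppm, the median of the list in FET against NC was -0.31, beside -0.06 over all genes, and 21 of 31 values were negative, beside 53.4% of all genes. Of the 31 tested genes, Crot, Acaa1a, Decr2 and Fabp1 were lower in every FET mouse than in every NC mouse, or 12.9% beside 11.5% of all genes. Higher in every FET mouse was Etfb, or 3.23% beside 9.99%. Etfb was also the only gene with an unadjusted p under 0.05, beside 16.7% of all genes. Under median-ratio scaling, Etfb and Decr2 had an unadjusted p under 0.05, or 6.45% of the list beside 17% of all genes. The lowest adjusted p of the list in ppm was 0.229.

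IVF against NC gave 0 of 31 genes at an adjusted p under 0.05, beside 0.0592% of all genes, and 0 at an unadjusted p under 0.05, beside 4.07%. The median log2 fold change of the list was -0.47, beside -0.25 over all genes, and 28 of 31 values were negative, beside 68.9% of all genes. Without IVF mouse 2, the library with the lowest nuclear protein-coding share, that median was 0.17. Of the 31 tested genes, Bdh1 alone was lower in every IVF mouse than in every NC mouse in FPKM, or 3.23% beside 5.46% of all genes. In ppm the median was -0.19, beside -0.07, and 5 genes were lower in every IVF mouse, namely Cpt1a, Hsd17b4, Decr2, Bdh1 and Fabp1, or 16.1% of the list beside 11.3% of all genes. Hadha alone was higher in every IVF mouse, or 3.23% beside 4.87%. At an unadjusted p under 0.05 in ppm, the list gave Cpt1a and Decr2, or 6.45% beside 5.43%, as it did under median-ratio scaling, beside 5.73%.

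FET against IVF gave 0 of 31 genes at an adjusted p under 0.05, beside 0.0888% of all genes, and 0 at an unadjusted p under 0.05, beside 4.01%. The median log2 fold change of the list was -0.30, beside -0.20 over all genes, with 25 of 31 values negative, beside 65.4% of all genes. Without IVF mouse 4 it was 0.32 and without FET mouse 4 it was 0.09. No gene of the list was lower in every FET mouse than in every IVF mouse in FPKM, beside 2.56% of all genes. In ppm the median of the list was 0.00 and that of all genes 0.02, and no gene of the list was lower (6.01% of all genes) or higher (6.72%) in every FET mouse. Bdh1 was the only gene with an unadjusted p under 0.05 in ppm, beside 9.43% of all genes.

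**Figure D4:**
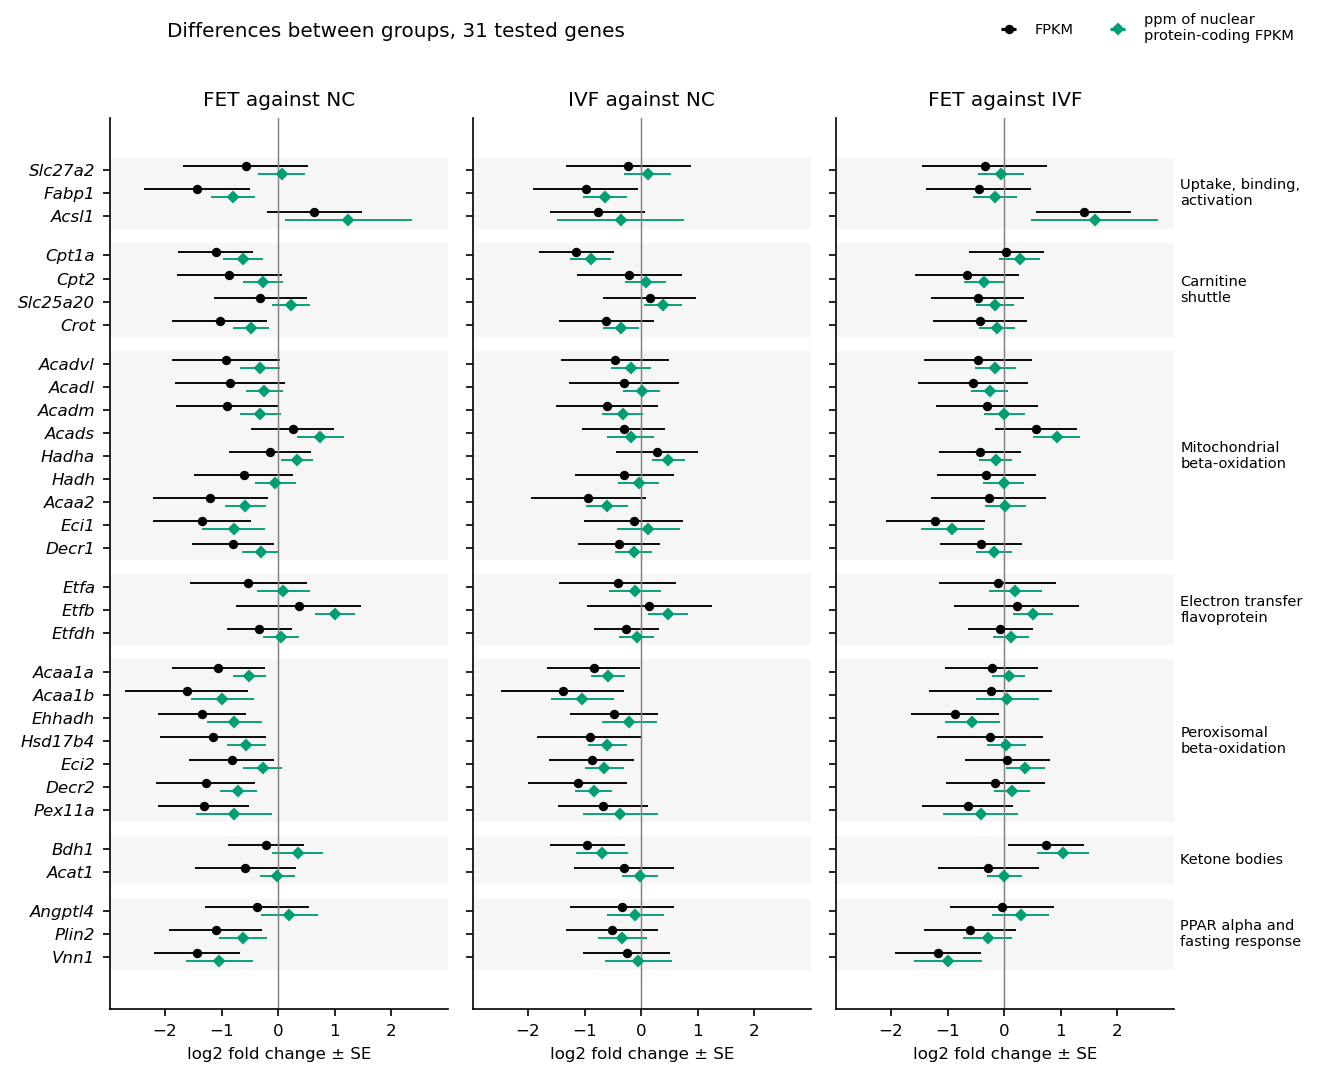
Log2 fold changes with their standard errors (x axis) of the 31 tested genes, grouped by role, in the 3 comparisons, from log2(FPKM + 1) (black circles) and from values rescaled to nuclear protein-coding genes (green diamonds). In FET against NC the values in FPKM run from -1.62 for Acaa1b to 0.64 for Acsl1, and the rescaled values lie closer to 0 for most genes, with smaller standard errors.

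A further 51 genes of the pathway that are not among the 39 were read from the same fits, and 39 of them were tested. None passed an adjusted p under 0.05. At an unadjusted p under 0.05 in FPKM, 6 of 39 were lower in FET than in NC, 2 lower in IVF than in NC and 1 lower in FET than in IVF, and none was higher. These are 15.4%, 5.13% and 2.56% of the 39 genes, beside 10.1%, 2.86% and 2.95% of all genes lower in the same comparisons. Their median log2 fold changes were -0.78 in FET against NC, -0.47 in IVF against NC and -0.35 in FET against IVF, beside -0.46, -0.25 and -0.20 over all genes. In ppm, 9 were lower in FET than in NC, 3 lower in IVF than in NC, and 4 lower and 1 higher in FET than in IVF. The lower genes are 23.1%, 7.69% and 10.3% of the 39, beside 9.52%, 3.85% and 4.78% of all genes, and the higher gene is 2.56% beside 4.65%. The 51 genes were chosen with earlier results of these data known, so these shares are descriptions only.

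The gene that was higher was Amacr, named here after its values were seen, which encodes the racemase that lets branched-chain acyl-CoA enter peroxisomal oxidation. In ppm it was 43.9, 71.2 and 88.0 in the NC mice, 31.6, 25.0 and 18.3 in the IVF mice and 86.6, 69.8 and 60.0 in the FET mice. Every IVF mouse lay below every other mouse on this scale. The log2 fold change in ppm was 1.24 ± 0.33 in FET against IVF (unadjusted p of 0.0040, adjusted p of 0.309 by limma) and -1.13 ± 0.33 in IVF against NC (unadjusted p of 0.0069, adjusted p of 0.699). In FPKM these values were 0.98 ± 0.75 and -1.41 ± 0.75, with adjusted p-values of 1.

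Acot13, a mitochondrial acyl-CoA thioesterase, had 35.3, 53.2 and 55.5 FPKM in the NC mice, 9.44, 28.7 and 96.3 in the IVF mice and 0, 29.5 and 3.93 in the FET mice. Its log2 fold change was -3.18 ± 1.04 in FET against NC (unadjusted p of 0.0038, adjusted p of 0.198 by limma) and -2.55 ± 1.04 in FET against IVF (unadjusted p of 0.018, adjusted p of 1). Every FET mouse lay below every NC mouse, and in FPKM FET mouse 3 lay within the range of the IVF mice. The FET values rested on an estimated 0, 61.8 and 8.57 fragments. With 1 mouse left out, the values ran from -4.44 (without FET mouse 3) to -1.97 (without FET mouse 2) in FET against NC and from -3.81 to -1.34 (without the same mice) in FET against IVF.

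Acsm3, a medium-chain acyl-CoA synthetase, had 2.44, 5.23 and 1.83 FPKM in the NC mice and at most 0.849 in the others, on an estimated 0, 10.1 and 5.05 fragments in FET mice 2, 3 and 4. Its log2 fold change was -1.57 ± 0.58 in FET against NC (adjusted p of 0.258) and -1.23 ± 0.58 in IVF against NC (adjusted p of 1). Acss2, the cytosolic acetyl-CoA synthetase, had 1.92, 4.12 and 8.57 FPKM in the NC mice, 0.481, 0.981 and 2.36 in the IVF mice and 1.35, 0.521 and 0.445 in the FET mice. Its log2 fold change was -1.60 ± 0.61 in FET against NC (adjusted p of 0.275) and -1.29 ± 0.61 in IVF against NC (adjusted p of 1). Both genes were lower in every FET mouse than in every NC mouse.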

How the data were processed

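Liver RNA of 9 mice was analysed, and groups were taken from the labels. FPKM per gene, the deposited unit, was made by the authors from mapped reads. The submitters' processing notes name FastQC 0.11.5, STAR 2.5.3a, StringTie 1.3.1c and DESeq2 1.16.1. The build, annotation and strandedness are not given in the sources used here. Identifiers were matched to GENCODE vM21 (GRCm38), which gave symbols and positions for 55154 of 55335 genes.

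Differences were tested with limma 3.58.1 (R 4.3.3) after adding 1 to FPKM and taking log2. The 6755 genes averaging 1 FPKM or more entered, in 1 model of the 3 groups, with a variance trend on the mean, two-sided p-values and Benjamini-Hochberg adjustment over all genes tested. A call was an adjusted p under 0.05. The procedure was tested on simulated data. Levels in ppm (parts per 1000000 of nuclear protein-coding FPKM) were refitted as log2(rescaled FPKM + 1), with values divided by the nuclear protein-coding sum relative to its geometric mean over mice. Depth was estimated from steps of up to 8 fragments within 2% in low FPKM values, and is an estimate. By library, 34.8% to 40.3% of the low values fell on such steps, against 18% by chance. Multiples of a depth fit nearly as well, and the lowest depth with a score close to the best was taken. Nothing says how the mice relate by litter, so p-values measure only the spread between these mice.

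The members and lists were chosen with earlier results of these data known. Values by mouse are given for members with an unadjusted p under 0.05 (none in FPKM), the most abundant member of each class, the one with the largest absolute log2 fold change in FET against NC, Cpt1a and Ehhadh, the 3 highest log2 fold changes in each comparison, and members whose groups do not overlap, these last chosen after their values were seen. Of other pathway genes, those with the lowest unadjusted p are named, at most 3 per comparison. Promoters are RefSeq's. Coding sequences were aligned with Biopython 1.88 in place of proteins. Alternatives were a pseudocount of 0.1, no filter, a minimum of 10 FPKM, median-ratio scaling, rescaling to nuclear protein-coding genes, only the groups compared, a block for the mouse number, NC mouse 1 alone, and leaving out each mouse. Leaving out IVF mouse 2 and FET mouse 4 together was added after the libraries had been seen.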

Additional observations from a re-analysis of the deposited data

How the results depend on the processing

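The count of genes called by adjusted p stayed at 0 of the list in every comparison under every alternative run. At an unadjusted p under 0.05, where FPKM gave 0, median-ratio scaling gave 2 genes in FET against NC and 2 in IVF against NC, each 6.45% of the list, beside 17% and 5.73% of all genes. Rescaling to nuclear protein-coding genes gave 1, 2 and 1 in FET against NC, IVF against NC and FET against IVF, beside 16.7%, 5.43% and 9.43%. No filter gave 1 of 39 (Hadhb) in IVF against NC, beside 5.76%, and leaving out IVF mouse 2 and FET mouse 4 gave 1 (Eci1) in FET against IVF, beside 9.02%. Leaving out 1 mouse gave 0 to 2, 0 to 4 and 0 to 3, of which only the 4 in IVF against NC without IVF mouse 4 (12.9% beside 7.05%) and the 2 in FET against IVF without FET mouse 3 (6.45% beside 6.19%) exceeded the share of all genes. The median of the list with 1 mouse left out ran from -1.19 to -0.65 in FET against NC, from -1.08 to 0.17 in IVF against NC and from -1.0 to 0.32 in FET against IVF, and without IVF mouse 2 and FET mouse 4 it was 0.17 in IVF against NC. Scaling shifted the median of all genes from -0.46 to -0.14 (median-ratio) or -0.06 (rescaled) in FET against NC.

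Sign changes were counted for the genes and comparisons followed through every setting, which leave out some genes named above. Among these, 15 of 276 values under other settings changed sign. Outside this count, rescaling also turned, among others, Slc27a2 (to 0.063) and Etfdh (to 0.051) in FET against NC. In FET against NC, median-ratio scaling gave 0.11 for Slc25a20, 0.23 for Hadha, 0.23 for Bdh1 and 0.075 for Angptl4, and rescaling gave 0.23, 0.34, 0.35 and 0.20 for the same genes and 0.091 for Etfa. NC mouse 1 alone gave 0.047 for Acaa1b and 0.13 for Bdh1 in FET against NC and 0.28 for Acaa1b in IVF against NC, with the lone mouse assumed to vary like the others. Leaving out IVF mouse 2 and FET mouse 4 gave 0.10 for Slc25a20, 0.17 for Hadha and 0.16 for Angptl4. With 1 mouse left out, log2 fold changes in FET against NC ran from -0.47 to 1.63 for Acsl1, from -0.29 to 0.64 for Acads, from -0.61 to 0.10 for Slc25a20, from -0.52 to 0.17 for Hadha, from -0.50 to 0.066 for Bdh1 and from -0.69 to 0.16 for Angptl4. In IVF against NC they ran from -0.53 to 0.92 for Slc25a20, from -0.24 to 0.90 for Hadha and from -0.60 to 1.06 for Etfb, and in FET against IVF from -0.14 to 0.94 for Acads. Without a change of sign, values moved by over 1.5 times in FET against NC for Fabp1, Eci1 (-1.94 to -0.74), Etfa (-0.84 to -0.10), Etfb, Acaa1b (-2.45 to -1.09), Acat1 (-1.01 to -0.014) and Acot13. They did so in IVF against NC for Fabp1, Acaa1b (-2.22 to -0.86), Decr2 (-1.80 to -0.50), Bdh1 (-1.15 to -0.62) and Acss2 (-1.71 to -0.85), and in FET against IVF for Acsl1 (0.30 to 2.30), Bdh1 (0.41 to 1.02), Eci1 (-2.11 to -0.61), Vnn1 and Acot13. The causes of these shifts were not tested.

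IVF and FET mice share the numbers 2, 3 and 4, and the deviations of same-numbered mice correlated at -0.26 to 0.02. With 3 mice in each group, these correlations cannot show whether the numbers mark a pairing. A replicate block left the median at -0.30 and the count at 0 in FET against IVF. Low FET values of Vnn1, Eci1, Acot13 and Acsm3 rest on few estimated fragments.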
